A study of Mus musculus with 15 samples.

Results

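Replication-dependent histone genes encode the bulk of the histone protein on which newly made DNA is wrapped. The genes were taken from the deposited count table by symbol, as the linker histones H1f1 to H1f5, every H2ac, H2bc, H3c and H4c symbol, and the older Hist1 to Hist4 names, with a total of at least 10 counts over 15 libraries. The rule found 63 of the 25239 genes in the table: 5 of the H1 family, 18 of H2A, 17 of H2B, 11 of H3 and 12 of H4. A further symbol, H3c14, was listed at 0 counts in every library and fell short of the minimum.

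The study applied RNA immunoprecipitation followed by sequencing (RIP-seq) to ST2, a mouse stromal cell line, to look for transcripts bound by Arid5a, an RNA-binding protein that takes part in inflammatory signalling. Cells were given interleukin 17 (IL-17) at 200 ng/mL or plain medium for 3 h and were crosslinked with 1% formaldehyde, and RNA was recovered from the lysate with an antibody against Arid5a or with mouse IgG2b, the antibody control. The groups were the Arid5a RIP after IL-17 (4 libraries), the IgG RIP after IL-17 (3 libraries, numbered 2 to 4), the Arid5a RIP in medium (4 libraries) and the IgG RIP in medium (4 libraries). No library of unprecipitated RNA was used here, so a difference between IL-17 and medium within one antibody cannot be told apart from a change of RNA level in the cells, and the labels do not say that replicates were separate cultures, so p-values measure only the spread between these libraries.

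Histone messages of this class are made mainly in S phase, when DNA is copied, and most come from genes without introns that sit in clusters. They end in a short stem-loop in place of a poly(A) tail. The stem-loop is held by SLBP, which serves in processing, translation and decay of the message. The many copies of each core histone encode proteins that are identical or nearly so, and their messages are alike over much of their length.

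The gene models came from the RefSeq annotation of GRCm38.p6, in which 54 of the 63 symbols were found directly, 8 through a synonym, and Hist1h2ap could not be assigned. Of the placed genes 53 lay on chromosome 13 and 9 on chromosome 3. The chromosome 3 cluster ran over chr3:96219885-96270192 and held all 9. On chromosome 13, 22 genes lay within chr13:21715711-22043658 and 30 within chr13:23531044-23934913. Hist1h2al matched H2af-ps2, a pseudogene outside both, at chr13:51200084-51203066. It was kept among the H2A genes because the rule goes by symbol. The median gene model was 492.5 bases long. Only 3 models overlapped another gene: H2ac1 and H2bc1 overlapped Gm33516, and the model of H2bc6 spanned 37455 bases and overlapped Gm33387.

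Stretches of 150 bases before the start of 4 genes that passed a test below, credited to RefSeq, are shown because these genes share a class and differ in their promoter letters. Capitals mark the TATA motif, searched as TATAAA; the CCAAT motif, searched as CCAAT and shown as ATTGG where it lies on the other strand; and the octamer motif, searched as ATTTGCAT. All were searched on both strands. The windows are chr13:23581418-23581567 on the plus strand for H4c4, chr13:23746584-23746733 on the plus strand for H2bc3, chr13:23622559-23622708 on the minus strand for H1f4 and chr3:96239128-96239277 on the minus strand for H3c15.
H4c4: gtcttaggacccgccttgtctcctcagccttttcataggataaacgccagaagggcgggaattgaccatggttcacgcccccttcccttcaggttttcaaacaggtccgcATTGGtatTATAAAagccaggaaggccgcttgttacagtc
H2bc3: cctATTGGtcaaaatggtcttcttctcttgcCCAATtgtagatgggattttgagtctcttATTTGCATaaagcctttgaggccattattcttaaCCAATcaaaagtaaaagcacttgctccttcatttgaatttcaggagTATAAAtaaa
H1f4: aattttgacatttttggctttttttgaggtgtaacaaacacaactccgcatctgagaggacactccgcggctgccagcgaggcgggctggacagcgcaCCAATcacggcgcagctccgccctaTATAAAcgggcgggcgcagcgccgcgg
H3c15: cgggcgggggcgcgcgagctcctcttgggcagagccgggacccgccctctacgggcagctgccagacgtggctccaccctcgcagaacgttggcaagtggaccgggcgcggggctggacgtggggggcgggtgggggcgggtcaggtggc

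The H4c4 and H1f4 windows hold a TATA motif and a CCAAT motif close to the start, the H2bc3 window holds all of the motifs searched, and the H3c15 window holds none of them. Over the 250 bases before the start, 49 of the genes had a RefSeq promoter, and CCAAT on either strand was found in 42 of these 49 (85.7%), against 33.8% of 32851 mouse promoters. TATAAA was found in 24 of the 49 (49.0%), against 12.4% of all promoters. The octamer ATTTGCAT, long known from histone H2B promoters, was found in 13 of the 49 (26.5%), against 1.6% of all: 7 of 12 H2B genes and 6 of 14 H2A genes held it. No H1, H3 or H4 promoter held the octamer, and CCAAT was found in 3 of 9 H4 promoters, against 8 of 9 H3 promoters and every H1, H2A and H2B promoter searched. These are matches of letters, and no binding was measured there. A histone gene was counted where any of its promoters held the motif, while the share of all promoters took each promoter singly.

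The 15 libraries held 939139 to 5713913 counts each, with IgG medium replicate 2 the shallowest. Of 15 markers of stromal cells, 14 had counts in every library, at up to 12100 CPM (library-size-scaled counts from edgeR, with TMM factors). Among them Thy1, Lum, Dcn and Vcam1 were low, at no more than 15.7, 8.98, 4.54 and 47.2 CPM. Of 14 haematopoietic markers 1 was at 0 throughout and the rest reached at most 14.2 CPM, and 12 epithelial and endothelial markers reached at most 53.9 CPM. In these lists 3 and 7 markers had counts in every library. Genes of olfactory and vomeronasal receptors differed in summed level between libraries of one group: they came to 1680, 1805, 1408 and 4062 CPM in the Arid5a IL-17 libraries and 3373, 3251 and 2386 CPM in the IgG IL-17 libraries. They came to 3234 to 4781 CPM in the Arid5a medium libraries and 1987 to 3090 CPM in the IgG medium libraries. Arid5a IL-17 replicate 4 thus stood apart from the other replicates of its group.

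TMM scaling left the median of the 5394 well-expressed genes (average log2 CPM of at least 5) away from 0, at −0.19 for Arid5a against IgG in medium, 0.15 with IL-17, 0.30 for IL-17 over medium in Arid5a libraries and −0.04 in IgG libraries. Changes of histone genes are therefore also given relative to these medians. Only 46 of the histone genes were themselves well expressed, so a gap to these medians also sets unlike levels side by side. How much of a gap comes from this was not tested. In the 4-group model of edgeR, 17835 genes were tested, 59 of the 63 histone genes among them. H2ac1, H2ac19, H2bc1 and Hist1h4m had too few counts to be tested.

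Histone genes made up 0.466% to 0.707% of the counts of a library. Levels per length, as deposited FPKM, were highest for the H2A gene H2ac18 (mean 2120, range 1380 to 3640 over the 15 libraries) and the H2B gene H2bc18 (mean 1730, range 1280 to 2460). The H4 genes H4c2 (mean FPKM 1160, range 458 to 1960) and H4c4 (953, range 457 to 1670) came next, with ranges that overlapped those of H2ac20 (939, range 441 to 1270), H2bc4 (881, range 470 to 1430) and H3c15 (748, range 355 to 1880). Linker histone genes averaged less than the core genes just named: H1f2 had a mean FPKM of 372 (range 138 to 631) and H1f4 one of 322 (range 166 to 620). Many other core histone genes averaged less than H1f4. H2ac18 alone took 11.9% of all histone counts, H2bc18 7.81% and H3c15 5.52%.

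The counts of these genes were mostly estimates. RSEM, named in the submitters' processing notes, divides reads that match several genes between them, and 82.3% of the histone values were not whole numbers, against 8.24% of the values of 22771 other genes with at least 10 counts. For 36 of the 63 genes the value was not whole in any of the 15 libraries, and Hist1h2bq and Hist1h2br held identical values throughout. Only 6 genes were whole in every library: H1f1 and H1f5 of the linker histones, H2ac1, H2bc18, H2bc21 and H4c14. RefSeq lists 28 of the genes as synonyms of each other in 5 groups, namely 10 H4 genes, 7 H3 genes around H3c15, 4 H3 genes around H3c10, 4 H2B genes around H2bc11 and the trio H2bc4, H2bc6 and H2bc8. The sum over such a group is given below beside the value of a single gene.

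H2bc11 is an H2B gene of the first chromosome 13 cluster at chr13:22043198-22043658. It had 43.9, 31.8, 29.5 and 28.9 CPM in the Arid5a medium libraries, against 32.2, 187, 194 and 124 CPM in the IgG medium libraries. IgG medium replicates 2 to 4 were far above every other library, and replicate 1 lay among the Arid5a values. The fitted log2 fold was −1.98 ± 0.48 (SE), with an adjusted p of 0.0964 that did not pass the threshold of 0.05. H2bc13, a member of the same synonym group, was chosen after its values were seen. H2bc13 had 140, 164, 110 and 127 CPM in the Arid5a medium libraries and 115, 10.1, 50.0 and 99.5 CPM in the IgG medium libraries, where it was low in replicates 2 and 3 and not in replicate 4. Summed over H2bc7, H2bc11, H2bc13 and H2bc15, the level was 285 ± 34.5 CPM in the Arid5a medium libraries and 278.9 ± 53.3 CPM in the IgG medium libraries (SD, n = 4 each), a log2 ratio of 0.03 with overlapping groups.

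**Figure D1:**
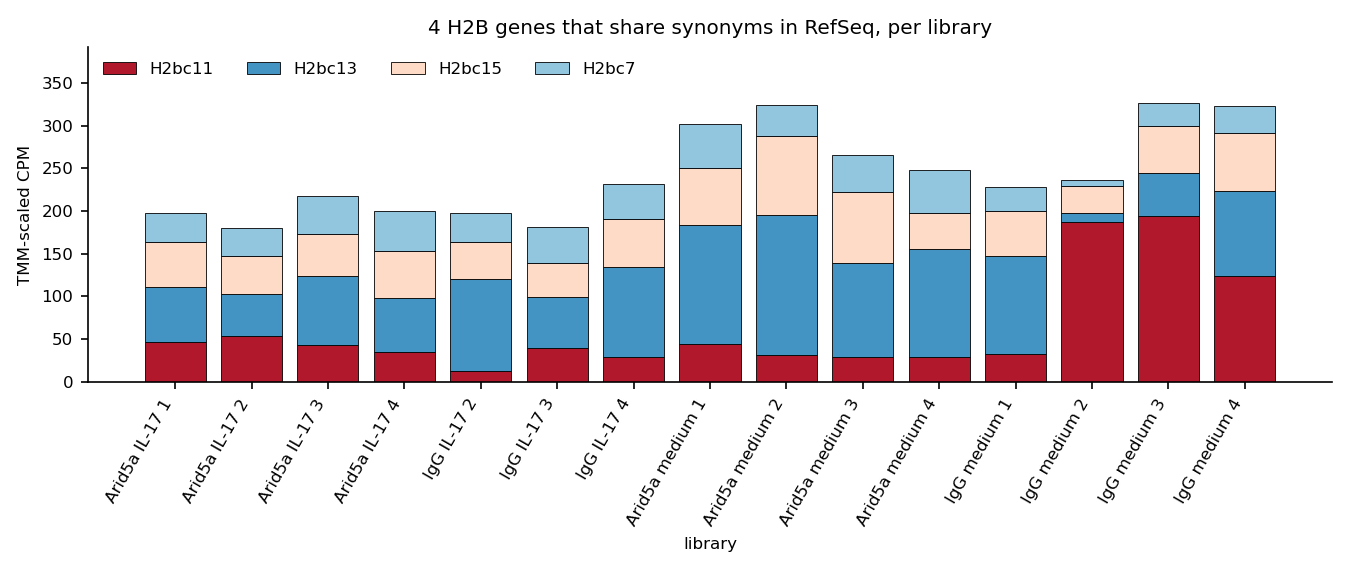
Stacked TMM-scaled CPM (y axis) of the 4 H2B genes H2bc11, H2bc13, H2bc15 and H2bc7 in each of the 15 libraries (x axis). In IgG medium replicates 2 to 4, H2bc11 took 124 to 194 CPM while the 4 genes together came to 236.7 to 326.4 CPM, against 229 CPM in IgG medium replicate 1 and 247.9 to 324.2 CPM in the Arid5a medium libraries.

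Hist1h2ap, an H2A gene, also varied widely within groups. It was listed at 0, 0, 0 and 11.7 CPM in the Arid5a IL-17 libraries and at 56.3, 0 and 151 CPM in the IgG IL-17 libraries. In medium it had 71.1, 75.2, 30.9 and 22.1 CPM in the Arid5a libraries and 69.4, 0, 0 and 5.35 CPM in the IgG libraries. It was thus at 0 in 6 libraries spread over 3 groups, and its fitted folds, the widest of all histone genes (−4.75 with IL-17 and −4.28 for IL-17 over medium in the Arid5a RIP), did not pass the threshold, with adjusted p of 0.478 and 0.188.

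The first comparison asks which transcripts the Arid5a antibody recovered beyond IgG in resting cells. Of the 59 histone genes tested, 1 passed an adjusted p of 0.05, and it was higher in the Arid5a RIP, where 0.628% of all genes passed in either direction and 0.0561% were higher. At an unadjusted p below 0.05, 9 were higher and 6 lower (15.3% and 10.2%, against 4.50% and 8.28% of all genes). The gene that passed was H4c4, at chr13:23581568-23581969, one of the 10 H4 genes that RefSeq lists as synonyms of each other. H4c4 had 192, 251, 149 and 217 CPM in the Arid5a medium libraries, against 148, 115, 99.8 and 145 CPM in the IgG medium libraries. Every Arid5a library lay above every IgG library, though Arid5a replicate 3 exceeded IgG replicate 1 by little. The log2 fold was 0.66 ± 0.16 (SE), adjusted p 0.0464.

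This call was a narrow one. It was lost when any 1 of 11 libraries was left out, namely IgG medium replicate 2 or 3, any Arid5a medium replicate, IgG IL-17 replicate 2 or 3, or Arid5a IL-17 replicate 1, 2 or 3, with adjusted p between 0.0516 and 0.268. With scaling on well-expressed genes the log2 fold was 0.83 and the adjusted p 0.0581. The 10 H4 genes of the synonym group summed to 772.7 ± 136 CPM in the Arid5a medium libraries and 599.1 ± 195 CPM in the IgG medium libraries (SD, n = 4 each), and those groups overlapped. H4c2, the H4 gene with the most counts, had 252, 233, 199 and 275 CPM in the Arid5a libraries and 228, 118, 142 and 302 CPM in the IgG libraries, a log2 fold of 0.26 ± 0.20 (SE) with an adjusted p of 0.614.

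Among the linker histones, which bind DNA between nucleosomes, H1f2 had 211, 165, 159 and 203 CPM in the Arid5a medium libraries and 157, 152, 78.9 and 120 CPM in the IgG medium libraries. Its groups did not overlap either, but the log2 fold of 0.55 ± 0.18 (SE) had an adjusted p of 0.166. All 5 H1 genes had fitted folds above 0 (median 0.26, range 0.05 to 0.56). The H2A genes ran from −0.60 to 1.2 (median 0.11), the H2B genes from −1.98 to 0.89 (median −0.01), the H3 genes from −0.46 to 0.43 (median 0.00) and the H4 genes from −0.25 to 0.96 (median 0.26). Groups did not overlap for 4 of the 59 genes, all higher in the Arid5a RIP (6.78%, against 5.01% of all genes), and for none with the Arid5a RIP lower, against 4.06% of all genes.

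As a class the histone genes had a median log2 fold of 0.06 in this comparison, while all genes tested had 0.04 and well-expressed genes −0.19. Of the 59, 44 lay above the well-expressed median. The gap of 0.25 between the histone and the well-expressed median was 0.21 to 0.43 when each library in turn was left out. A change of scaling shifts both medians together and does not test this gap, and the histone median itself was 0.24 with scaling on well-expressed genes. The class was not uniform: H2bc18, an H2B gene whose counts were whole in every library, had 448, 598, 382 and 488 CPM in the Arid5a medium libraries and 414, 505, 561 and 634 CPM in the IgG medium libraries. Its log2 fold of −0.14 ± 0.15 (SE, adjusted p 0.716) lay near the median of well-expressed genes.

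**Figure D2:**
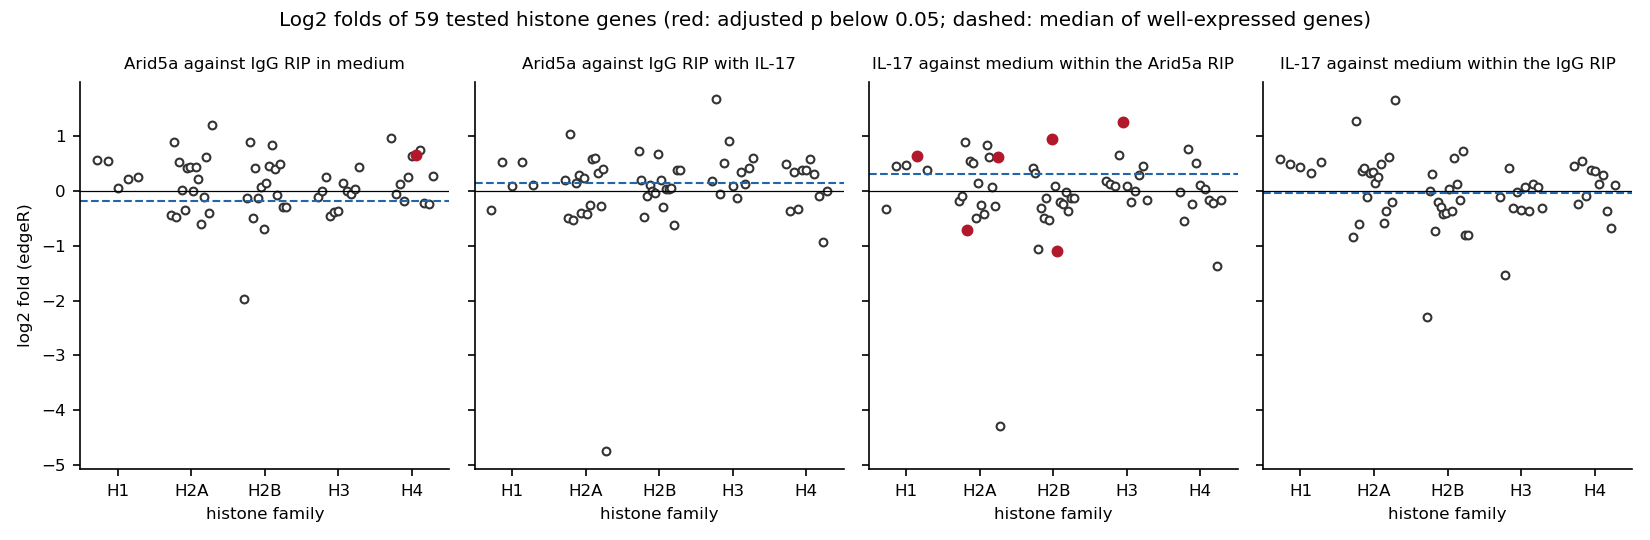
Log2 folds (y axis) of the 59 tested histone genes by family (x axis) in 4 comparisons, with genes at an adjusted p below 0.05 in red and the median of well-expressed genes as a dashed line. The red points are H4c4 in the first panel and H2bc3, H3c15, Hist1h2ao, H1f4, H2bc6 and H2ac13 in the third, and most histone genes lie above the dashed line in the first panel and below it in the third.

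With IL-17, no histone gene passed the threshold between the Arid5a RIP and the IgG RIP in edgeR, where 0.0673% of all genes did, 0.0561% higher and 0.0112% lower. At an unadjusted p below 0.05, 8 histone genes were higher and 3 lower (13.6% and 5.08%, against 4.74% and 4.21% of all genes). In either direction the background was 8.95%. DESeq2 called 0, limma on FPKM called 0 and limma voom called 1, which was H4c4. Groups did not overlap for 3 genes with the Arid5a RIP higher and 3 with it lower (5.08% each, against 5.31% and 4.38% of all genes). H4c4 had 232, 212, 209 and 175 CPM in the Arid5a IL-17 libraries, against 135, 131 and 153 CPM in the IgG IL-17 libraries. As in medium the groups did not overlap, and the log2 fold was 0.57 ± 0.17 (SE), with an adjusted p of 0.300 in edgeR. The difference between the enrichment with IL-17 and that in medium was −0.09 ± 0.23 (SE) for H4c4, adjusted p 0.872.

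H1f2 had 299, 295, 226 and 195 CPM in the Arid5a IL-17 libraries and 181, 209 and 139 CPM in the IgG IL-17 libraries. Arid5a replicate 4 fell below IgG replicate 3, and the log2 fold of 0.52 ± 0.19 (SE) had an adjusted p of 0.416. H3c10, an H3 gene of low counts, had the highest fold of the class, 1.67 ± 0.62 (SE), adjusted p 0.413. It had 11.5, 14, 10.4 and 11.3 CPM in the Arid5a IL-17 libraries and 3.27, 4.88 and 2.97 CPM in the IgG IL-17 libraries, and the sum over its 4 synonym genes was 105.0 ± 16.9 CPM (n = 4) against 83.71 ± 17.8 CPM (SD, n = 3), with overlapping groups. The median log2 fold was 0.15 for the 59 histone genes, 0.15 for well-expressed genes and −0.01 for all genes, and 29 of the 59 lay above the well-expressed median.

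Whether the Arid5a enrichment itself changed with IL-17 was tested as the difference of both log2 folds, IL-17 minus medium. Here 1 of 59 histone genes passed, with a gain, where 0.976% of all genes passed and 0.869% gained. At an unadjusted p below 0.05, 11 gained and 7 lost (18.6% and 11.9%, against 9.51% and 6.77% of all genes, or 16.3% in either direction). It was H2bc3, an H2B gene at chr13:23746734-23747223, whose promoter window is printed above with its octamer. H2bc3 had 264, 301, 247 and 184 CPM in the Arid5a IL-17 libraries and 108, 214 and 147 CPM in the IgG IL-17 libraries. In medium H2bc3 had 121, 138, 97.9 and 158 CPM in the Arid5a libraries and 150, 199, 174 and 308 CPM in the IgG libraries. With IL-17 most Arid5a libraries were above the IgG libraries, in medium most were below them, and the groups overlapped in each condition.

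The log2 fold of Arid5a over IgG was thus 0.67 ± 0.23 with IL-17 and −0.69 ± 0.21 in medium (SE), neither past the threshold alone (adjusted p 0.389 and 0.149), and the difference was 1.36 ± 0.31 (SE, adjusted p 0.0331). Leaving out any 1 of 10 libraries ended the call, with adjusted p of 0.0555 to 0.103: IgG medium replicate 2 or 3, Arid5a medium replicate 1, 2 or 3, IgG IL-17 replicate 2 or 4, or Arid5a IL-17 replicate 1, 2 or 3. Scaling on well-expressed genes gave 1.03 with an adjusted p of 0.186, and a fit with a replicate block also ended the call. The median difference over the 59 histone genes was 0.05, against −0.05 for all genes and 0.34 for well-expressed genes. With scaling on well-expressed genes the histone median turned to −0.29. The gap to the well-expressed median, −0.29, ranged from −0.38 to −0.20 over the libraries left out in turn.

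The response to IL-17 within the Arid5a RIP gave the most calls, 4 higher and 2 lower of 59 histone genes (10.2%), where 5.65% of all genes passed, 4.84% higher and 0.813% lower. At an unadjusted p below 0.05, 12 were higher and 8 lower (20.3% and 13.6%, against 13.1% and 9.18% of all genes). The genes that were higher after IL-17 were H3c15, H2bc3, H1f4 and Hist1h2ao, one each of the H3, H2B, H1 and H2A families. Those that were lower were H2bc6 and H2ac13, an H2B and an H2A gene. This comparison shares its Arid5a medium and IL-17 libraries with those above, so the same library values enter each.

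H3c15, the H3 gene with the most counts, at chr3:96238479-96239127, had 526, 720, 372 and 376 CPM in the Arid5a IL-17 libraries, against 217, 258, 148 and 210 CPM in the Arid5a medium libraries. Every IL-17 library was well above every medium library. The log2 fold was 1.26 ± 0.26 (SE), adjusted p 0.00889. In the IgG RIP it had 187, 337 and 278 CPM after IL-17 and 167, 309, 260 and 357 CPM in medium, a log2 fold of −0.03 ± 0.28 (SE, adjusted p 0.988). Its difference between antibodies did not pass the threshold (1.29 ± 0.38, SE, adjusted p 0.111). With scaling on well-expressed genes the fold within the Arid5a RIP was 0.94, adjusted p 0.0854, and with library totals 1.00, adjusted p 0.0778.

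The synonym group of H3c15 holds 7 H3 genes. Their sum came to 1092, 1247, 812.7 and 683.5 CPM in the Arid5a IL-17 libraries, against 608.6, 716.8, 427.3 and 619 CPM in the Arid5a medium libraries. Replicate 4 after IL-17 fell below replicate 2 in medium, so the groups overlapped, and the log2 ratio of means was 0.69. It was 0.61 with the factors of DESeq2 and 0.47, 0.43 and 0.37 with upper-quartile factors, library totals and scaling on well-expressed genes, with overlap in each. H3c2, another H3 gene of the group, had 140, 158, 134 and 95.9 CPM after IL-17 and 127, 157, 82.1 and 130 CPM in medium, a log2 fold of 0.09 ± 0.17 (SE, adjusted p 0.771).

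H2bc3, whose library values are given above, was higher after IL-17 in every Arid5a library than in any in medium. The log2 fold was 0.95 ± 0.21 (SE), adjusted p 0.00776. Among IgG libraries the fold was −0.41 ± 0.23 (SE), adjusted p 0.529. Scaling on well-expressed genes gave 0.64 for the Arid5a RIP, with an adjusted p of 0.124, and library totals gave 0.70, with one of 0.116.

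H1f4, a linker histone gene at chr13:23621777-23622558, had 249, 330, 255 and 161 CPM in the Arid5a IL-17 libraries, against 151, 174, 129 and 186 CPM in the Arid5a medium libraries. Replicate 4 after IL-17 lay within the medium values, and the log2 fold was 0.64 ± 0.19 (SE), adjusted p 0.0384. Hist1h2ao, an H2A gene that RefSeq names H2ac23, at chr13:21810367-21810918, had 210, 260, 250 and 157 CPM after IL-17, against 112, 169, 132 and 161 CPM in medium. It too overlapped through replicate 4, with a log2 fold of 0.62 ± 0.17 (SE), adjusted p 0.0282. Both calls were lost with scaling on well-expressed genes (log2 folds 0.31 and 0.30, adjusted p 0.303 and 0.286). They were also lost without Arid5a medium replicate 1 or 3 or Arid5a IL-17 replicate 1, 2 or 3, and that of H1f4 without Arid5a medium replicate 2, with adjusted p of 0.0781 to 0.233 for H1f4 and 0.0761 to 0.152 for Hist1h2ao.

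H2bc6 was lower after IL-17. It had 30.4, 20, 20 and 29 CPM in the Arid5a IL-17 libraries, against 62.5, 59, 56 and 35.9 CPM in the Arid5a medium libraries. All IL-17 values lay below all medium values. The log2 fold was −1.10 ± 0.24 (SE), adjusted p 0.00415. Each of the 15 fits that left out a library, like each other scaling of the counts, kept it past the threshold. Limma on FPKM, run in 2 ways, lost the call in each, with an adjusted p of up to 0.168. The sum over H2bc4, H2bc6 and H2bc8 was 309.6 ± 52.0 CPM after IL-17 and 331.8 ± 31.4 CPM in medium (SD, n = 4 each), a log2 ratio of −0.10 with overlapping groups. It was −0.18 with the factors of DESeq2, again with overlap, and −0.32, −0.36 and −0.42 without overlap with upper-quartile factors, library totals and scaling on well-expressed genes. H2bc4, the most abundant of the trio by counts, had 259, 281, 246 and 173 CPM after IL-17 and 212, 257, 217 and 216 CPM in medium.

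H2ac13, an H2A gene at chr13:21716412-21716859, had 76.4, 77.8, 84.9 and 69.2 CPM in the Arid5a IL-17 libraries, against 167, 106, 96.4 and 133 CPM in the Arid5a medium libraries. The groups did not overlap, and the log2 fold was −0.71 ± 0.20 (SE), adjusted p 0.0345. This call was lost without Arid5a medium replicate 1, 2 or 4, IgG IL-17 replicate 3 or Arid5a IL-17 replicate 1, 2 or 3, with adjusted p of 0.0512 to 0.164. In the IgG RIP H2ac13 had 100, 115 and 122 CPM after IL-17 and 117, 38.6, 80.8 and 101 CPM in medium, a log2 fold of 0.36 ± 0.22 (SE, adjusted p 0.572).

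**Figure D3:**
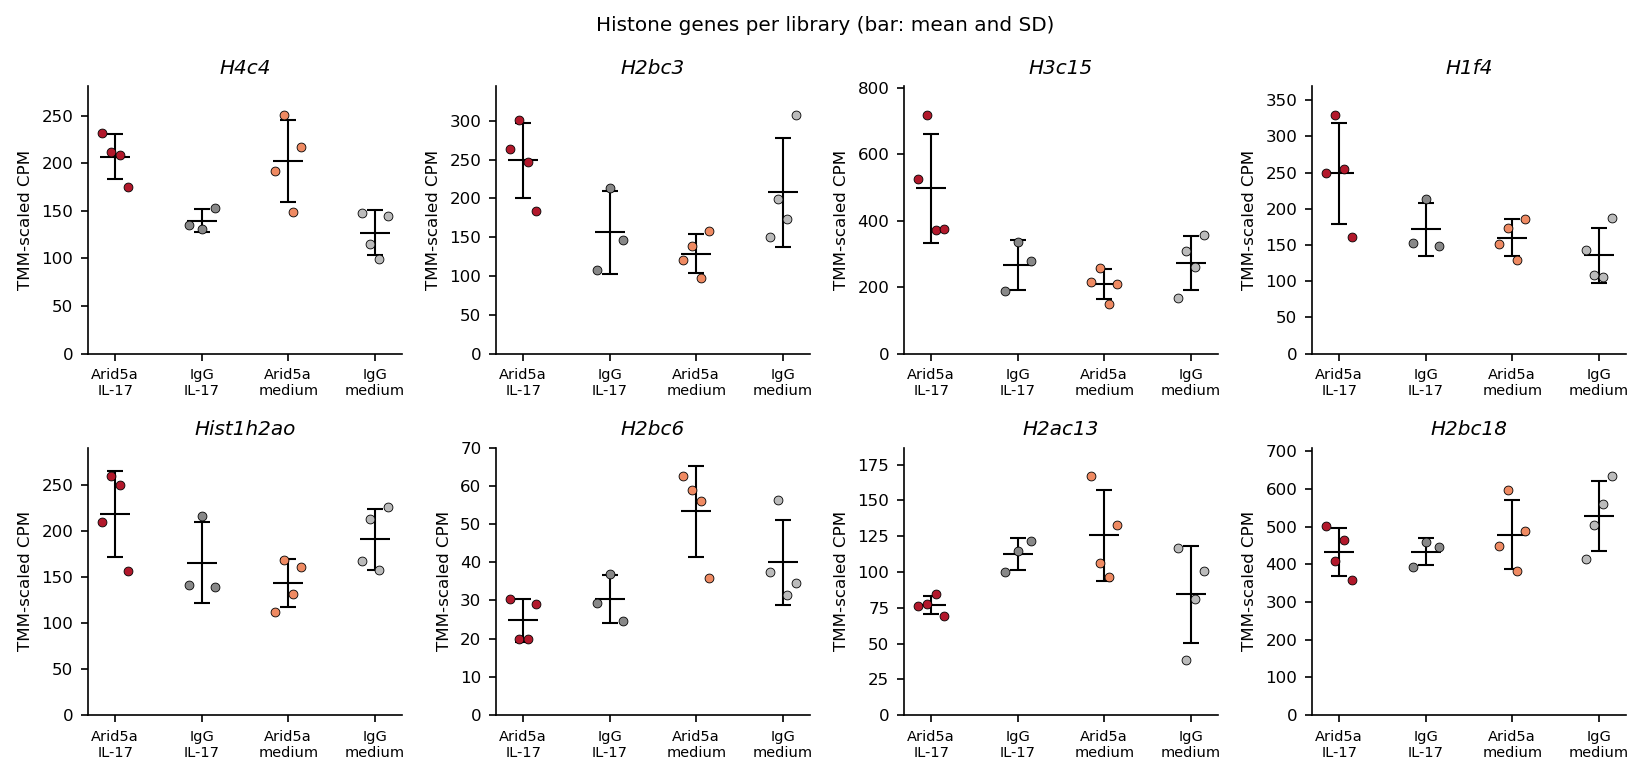
TMM-scaled CPM (y axis) of 8 histone genes in every library by group (x axis), with the mean and SD as bars. The Arid5a IL-17 libraries of H3c15 and H2bc3 all lie above the Arid5a medium libraries, those of H2bc6 and H2ac13 all lie below, and the groups of H2bc18 overlap in each comparison.

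The number of calls depended on single libraries. Without Arid5a IL-17 replicate 4, which was also the library with a high level of receptor genes, 14 histone genes passed, 11 higher and 3 lower. Without IgG medium replicate 2 there were 10, and without Arid5a medium replicate 1 or Arid5a IL-17 replicate 1, 2 or 3 there were 3. The receptor genes were at 1408 to 1805 CPM in Arid5a IL-17 replicates 1 to 3 and at 4062 CPM in replicate 4, against 3234 to 4781 CPM in the Arid5a medium libraries, and their part in these histone results was not tested. Groups did not overlap for 4 genes with IL-17 higher (6.78%, against 10.7% of all genes) and for 5 with IL-17 lower (8.47%, against 9.29%).

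As a class the histone genes had a median log2 fold of −0.02 for IL-17 over medium in the Arid5a RIP, while all genes had −0.12 and well-expressed genes 0.30. Of the 59, 18 lay above the well-expressed median. With scaling on well-expressed genes the histone median was −0.33. The gap of −0.32 was −0.44 to −0.26 with each library left out in turn. H2bc18 had 503, 409, 465 and 358 CPM after IL-17 and 448, 598, 382 and 488 CPM in medium among the Arid5a libraries, with a log2 fold of −0.14 ± 0.15 (SE) at an adjusted p of 0.572. H2ac18, the most abundant H2A gene, had 893, 1030, 858 and 486 CPM after IL-17 and 605, 613, 484 and 587 CPM in medium, where replicate 4 after IL-17 again fell among the medium values (log2 fold 0.51 ± 0.19, SE, adjusted p 0.108).

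Within the IgG RIP no histone gene passed the threshold for IL-17 against medium in edgeR, where 0.493% of all genes did. At an unadjusted p below 0.05, 5 were higher and 6 lower (8.47% and 10.2%, against 5.03% and 6.12% of all genes), while DESeq2 called 5 (1 higher, 4 lower) and limma voom 2 (both lower). Each of these counts of lower genes takes the identical rows Hist1h2bq and Hist1h2br as 2 genes, and the 2 of limma voom are this pair. The smallest p belonged to the H2B rows Hist1h2bq and Hist1h2br, which hold the same values: 51.4, 65.9 and 92.5 CPM in the IgG IL-17 libraries, against 103, 149, 110 and 127 CPM in the IgG medium libraries. No IL-17 value reached a medium value, and the log2 fold was −0.81 ± 0.21 (SE), adjusted p 0.0637. The smallest p of the H2A family belonged to H2ac10, with 53.5, 56.4 and 77.9 CPM in the IgG IL-17 libraries, against 80.7, 107, 94.8 and 162 CPM in the IgG medium libraries. Its groups did not overlap, and the log2 fold was −0.84 ± 0.22 (SE), adjusted p 0.0830. Groups did not overlap for 3 genes with IL-17 higher (5.08%, against 4.28% of all genes) and for 4 with IL-17 lower (6.78%, against 3.34%). The 4 lower genes again count Hist1h2bq and Hist1h2br separately. All 5 H1 genes had fitted folds above 0 here too (median 0.49, range 0.32 to 0.57). H2bc11 had the lowest fold, −2.30 ± 0.54 (SE, adjusted p 0.103), for the same high values in IgG medium replicates 2 to 4 as above.

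Summing each family removes the division of reads among its copies. All 63 genes summed to 6517 ± 1140 CPM in the Arid5a IL-17 libraries (n = 4), 5548 ± 785 CPM in the IgG IL-17 libraries (n = 3), 5586 ± 753 CPM in the Arid5a medium libraries and 5651 ± 826 CPM in the IgG medium libraries (SD, n = 4 each). Each pair of groups compared overlapped, and the log2 ratio of IL-17 over medium for the Arid5a libraries, 0.22, turned to −0.09 with scaling on well-expressed genes. Arid5a IL-17 replicates 1 to 3, at 7210, 7364 and 6624 CPM, stood above replicate 4 at 4870 CPM.

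The H1 sum was 783.2 ± 164 CPM in the Arid5a IL-17 libraries and 558.5 ± 75.2 CPM in the Arid5a medium libraries, a log2 ratio of 0.49 that was 0.17 with scaling on well-expressed genes and above 0 under each scaling tried. Among IgG libraries it was 616.0 ± 113 CPM after IL-17 and 455.5 ± 94.0 CPM in medium, a log2 ratio of 0.44. For IL-17 over medium in the Arid5a libraries the H3 sum had a log2 ratio of 0.61, which was 0.29 to 0.53 under the other scalings. The H3 sum was 1064 ± 267 CPM in the Arid5a IL-17 libraries and 737.9 ± 154 CPM in the IgG IL-17 libraries (log2 ratio 0.53, and 0.36 to 0.48 under the other scalings). In medium the H3 sum was 696.3 ± 139 CPM in the Arid5a libraries and 815.3 ± 134 CPM in the IgG libraries, a log2 ratio of −0.23 that was −0.06 with library totals. Groups overlapped in each of these.

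The H4 sum was 947.7 ± 112 CPM in the Arid5a IL-17 libraries and 759.8 ± 101 CPM in the IgG IL-17 libraries, and 829.0 ± 145 CPM in the Arid5a medium libraries against 645.3 ± 211 CPM in the IgG medium libraries. The log2 ratios of Arid5a over IgG, 0.32 and 0.36, were 0.16 and 0.53 with scaling on well-expressed genes. Those of IL-17 over medium within the Arid5a RIP were 0.19 for both H4 and H2A, and with that scaling they turned to −0.11 and −0.13. In bulk libraries a difference in the number of cells in S phase and one in histone RNA per cell cannot be told apart. The H2B sum had a log2 ratio of −0.03 within the Arid5a RIP, which was −0.35 with that scaling, the groups then not overlapping, and −0.31 within the IgG RIP. For Arid5a over IgG the H2A and H2B sums changed sign between scalings, from −0.06 to 0.11 and from −0.13 to 0.05 in medium, and from 0.09 to −0.08 and from 0.15 to −0.01 with IL-17.

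**Figure D4:**
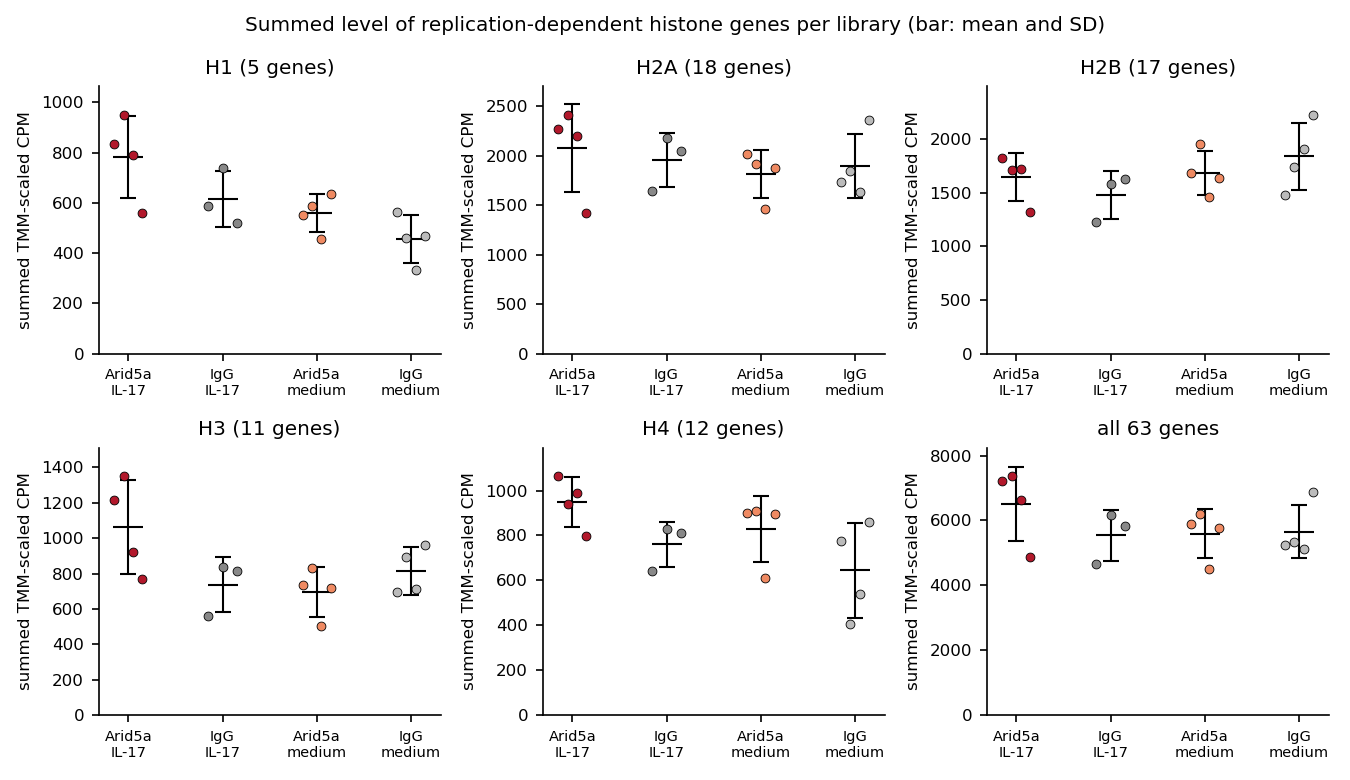
Summed TMM-scaled CPM (y axis) of each histone family and of all 63 genes in every library by group (x axis), with the mean and SD as bars. Arid5a IL-17 replicate 4 lies below replicates 1 to 3 in every panel, and groups overlap in every comparison between antibodies and between IL-17 and medium.

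For the other synonym group of H2B genes the sums differed between IL-17 and medium. The 4 H2B genes around H2bc11 summed to 198.1, 179.6, 217.2 and 200.4 CPM in the Arid5a IL-17 libraries, against 302.2, 324.2, 265.8 and 247.9 CPM in the Arid5a medium libraries. Every IL-17 library lay below every medium library, with a log2 ratio of −0.52 that was −0.59 to −0.82 under the other scalings, groups not overlapping in any. In the IgG RIP they summed to 197.4, 181.2 and 230.8 CPM after IL-17, against 229, 236.7, 326.4 and 323.6 CPM in medium. There IL-17 replicate 4 exceeded medium replicate 1 by little, and the log2 ratio was −0.46. With library totals and scaling on well-expressed genes that ratio was −0.41 and −0.43, the IgG groups then not overlapping. With upper-quartile factors and those of DESeq2 it was −0.42 and −0.45, with overlap. The 6 genes with whole counts summed to 562.6 ± 82.1 CPM in the Arid5a IL-17 libraries (n = 4), 563.4 ± 39.4 CPM in the IgG IL-17 libraries (n = 3), 595.6 ± 108 CPM in the Arid5a medium libraries and 629.3 ± 83.4 CPM in the IgG medium libraries (SD, n = 4 each), with overlap throughout.

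The replication-independent variants, most of which are made outside S phase as well and carry poly(A) tails, were set beside the class. The list held 12 genes, 11 of them tested. In medium their median log2 fold of Arid5a over IgG was −0.24, with 1 gene called lower, and 4 lower at an unadjusted p below 0.05 (against 0.572% and 8.28% of all genes). For IL-17 over medium in the Arid5a RIP the median was 0.19, with 3 genes called higher, where 4.84% of all genes were: H3f3b, H3f3a and H2az2. H3f3b, which encodes histone H3.3, had 712, 779, 636 and 486 CPM in the Arid5a IL-17 libraries, against 424, 332, 342 and 383 CPM in the Arid5a medium libraries. Every IL-17 value was above every medium value, and the log2 fold was 0.82 ± 0.14 (SE), adjusted p 0.000306.

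In the other antibody H3f3b had 424, 517 and 577 CPM in the IgG IL-17 libraries and 486, 582, 528 and 603 CPM in the IgG medium libraries. Its log2 fold of Arid5a over IgG was −0.57 ± 0.14 in medium (SE, adjusted p 0.0470), where the Arid5a libraries were all lower, and 0.37 ± 0.15 with IL-17 (SE, adjusted p 0.458), and the difference of 0.94 ± 0.21 (SE) had an adjusted p of 0.0223. The medium call was lost without any 1 of 12 libraries (adjusted p 0.0516 to 0.274), each except IgG medium replicate 1, IgG IL-17 replicate 4 and Arid5a IL-17 replicate 4, and with each scaling on other factors except those of DESeq2. H3f3a, the second H3.3 gene, had differences of 0.81 ± 0.14 for IL-17 against medium (adjusted p 0.000365) and 1.00 ± 0.21 between enrichments (SE, adjusted p 0.0185). H2az1, an H2A.Z gene, had 0.99 ± 0.25 between enrichments (SE, adjusted p 0.0435), and H2az2, the other, rose by 0.69 ± 0.18 on the log2 scale after IL-17 (SE, adjusted p 0.0195). The differences between enrichments were lost without IgG medium replicate 3, Arid5a medium replicate 3, IgG IL-17 replicate 2 or Arid5a IL-17 replicate 1 or 2 for H3f3a (adjusted p 0.0555 to 0.0938), and without these or Arid5a medium replicate 2 for H3f3b (0.0555 to 0.103). That of H2az1 was lost without any 1 of 11 libraries, each except IgG medium replicate 1, Arid5a medium replicate 1, IgG IL-17 replicate 3 and Arid5a IL-17 replicate 4 (adjusted p 0.0518 to 0.143), and the call of H2az2 without Arid5a medium replicate 2, 3 or 4 or Arid5a IL-17 replicate 1 or 2 (0.0541 to 0.103). Other settings ended them too: of 26 alternatives, 10 ended the difference of H3f3a, 11 that of H3f3b and 19 that of H2az1. For H2az2 it was 10 of 27. Well-expressed genes had a median difference between enrichments of 0.34.

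Of 27 genes for the 3′ end processing, transcription and decay of histone messages, 26 were tested. Their median log2 fold of Arid5a over IgG was −0.19 in medium and 0.09 with IL-17, with 0 and 2 higher and 8 and 0 lower at an unadjusted p below 0.05, and none past the threshold in edgeR. Of all genes, 4.50% and 4.74% were higher and 8.28% and 4.21% lower at that unadjusted p. For IL-17 against medium the median was 0.21 within the Arid5a RIP and −0.12 within the IgG RIP. The gene called in the difference between enrichments was Slbp, which encodes the protein that holds the stem-loop. Slbp had 141, 147, 137 and 116 CPM in the Arid5a IL-17 libraries and 88.2, 134 and 81.3 CPM in the IgG IL-17 libraries. In medium it had 120, 95.8, 97.9 and 90.6 CPM in the Arid5a libraries and 118, 194, 181 and 158 CPM in the IgG libraries.

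In medium most Arid5a libraries thus lay below the IgG libraries, and after IL-17 most lay above them. Its log2 folds of Arid5a over IgG were 0.42 ± 0.18 with IL-17 and −0.67 ± 0.17 in medium (SE, adjusted p 0.494 and 0.0550), and the difference was 1.09 ± 0.25 (SE, adjusted p 0.0263). That call was lost without any 1 of 9 libraries (adjusted p 0.0607 to 0.106), namely IgG medium replicate 3, Arid5a medium replicate 2, 3 or 4, IgG IL-17 replicate 2 or 4 and Arid5a IL-17 replicate 1, 2 or 3, and with scaling on well-expressed genes (0.75, adjusted p 0.175). Npat, the transcription coactivator of histone genes, had a log2 fold of 0.61 ± 0.26 for IL-17 over medium in the Arid5a RIP and 0.60 ± 0.29 in the IgG RIP (SE, adjusted p 0.156 and 0.437). Casp8ap2, which works with Npat, had 0.36 ± 0.17 in the Arid5a RIP (SE, adjusted p 0.194), and Lsm11, a part of the U7 particle that cuts histone messages, had −0.62 ± 0.29 (SE, adjusted p 0.197).

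All 22 histone chaperone and acetylation genes of the list were tested. In medium their median log2 fold of Arid5a over IgG was −0.18, with Npm1 called lower, where 0.572% of all genes were. In the Arid5a RIP their median for IL-17 against medium was 0.26, against 0.30 for well-expressed genes. There 5 were called higher, where 4.84% of all genes were: Npm1, Nap1l1, Nap1l4, Atrx and Supt16. Of 27 alternatives, 3, 5, 8, 11 and 18 ended these calls, in that order. No single library left out ended that of Nap1l1, whose adjusted p reached 0.259 under another alternative. The call of Nap1l4 was lost without Arid5a medium replicate 2 or 3 or Arid5a IL-17 replicate 2 (adjusted p 0.0556 to 0.0772), and that of Atrx without Arid5a medium replicate 1, 2 or 3 or Arid5a IL-17 replicate 1, 2 or 3 (0.0539 to 0.101). Supt16, at an adjusted p of 0.0491, was lost without any 1 of 10 libraries, each except IgG medium replicate 1 or 2, IgG IL-17 replicate 3 or 4 and Arid5a IL-17 replicate 4 (0.0521 to 0.191). Npm1, an abundant nucleolar chaperone, had 1830, 1820, 1740 and 1430 CPM in the Arid5a IL-17 libraries, against 1050, 938, 1150 and 1130 CPM in the Arid5a medium libraries. The groups did not overlap, and the log2 fold was 0.67 ± 0.14 (SE), adjusted p 0.00202. In the IgG RIP Npm1 had 1260, 1400 and 1370 CPM after IL-17 and 1190, 1980, 1970 and 1500 CPM in medium. Its log2 fold of Arid5a over IgG was −0.63 ± 0.14 in medium (SE, adjusted p 0.0253), and the difference between enrichments was 0.98 ± 0.20 (SE, adjusted p 0.0177). Both were lost without single libraries: that in medium without IgG medium replicate 2 or 3 or any Arid5a medium replicate (adjusted p 0.0520 to 0.174), the difference without IgG medium replicate 3, Arid5a medium replicate 2 or 3, IgG IL-17 replicate 2 or Arid5a IL-17 replicate 1 or 2 (0.0520 to 0.0857). With other settings counted as well, 13 of 27 alternatives ended the call in medium and 11 of 26 the difference.

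Of 52 genes for DNA replication and S phase, Slbp again among them, all were tested. Their median log2 fold of Arid5a over IgG was −0.16 in medium, with 1 gene called lower and 12 lower at an unadjusted p below 0.05 (against 0.572% and 8.28% of all genes), and 0.18 with IL-17. For IL-17 against medium it was 0.21 within the Arid5a RIP, with 1 called higher (4.84% of all genes), and −0.18 within the IgG RIP, with 1 called lower (0.235% of all genes). Rrm2, a subunit of the enzyme that makes deoxynucleotides, had 214, 222, 190 and 176 CPM in the Arid5a medium libraries, against 239, 376, 443 and 284 CPM in the IgG medium libraries. No Arid5a value reached an IgG value, and the log2 fold was −0.74 ± 0.17 (SE), adjusted p 0.0307.

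Rrm2 had 203, 195 and 185 CPM in the IgG IL-17 libraries, below every IgG medium library, a log2 fold of −0.78 ± 0.18 for IL-17 against medium (SE, adjusted p 0.0353). The medium call was lost without IgG medium replicate 2 or 3 or any Arid5a medium replicate (adjusted p 0.0501 to 0.229), and the IgG call without IgG medium replicate 2 or 3, Arid5a medium replicate 3, any IgG IL-17 replicate or Arid5a IL-17 replicate 1 (0.0505 to 0.203). Dut, which removes dUTP, had a log2 fold of 0.81 ± 0.17 for IL-17 over medium in the Arid5a RIP (SE, adjusted p 0.00319). Pcna, the sliding clamp of the replication fork, had 0.46 ± 0.17 (SE, adjusted p 0.107).

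Set side by side, the medians of the 4 lists for Arid5a over IgG in medium, −0.24, −0.19, −0.18 and −0.16, lay near the −0.19 of well-expressed genes, and the 0.06 of the replication-dependent histone genes lay above it. For IL-17 over medium in the Arid5a RIP the lists' medians of 0.19, 0.21, 0.26 and 0.21 lay nearer to the 0.30 of well-expressed genes than did the −0.02 of the histone genes. Both comparisons use the Arid5a medium libraries, and the difference between the class and the lists was not tested.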

How the data were processed

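The 15 libraries came from RIP-seq of mouse ST2 cells with the SMART-Seq Stranded kit. The authors deposited expected counts per gene, and FPKM values per gene as a second table. The submitters' processing notes name STAR 2.7.9, RSEM 1.3.1, DESeq2 1.36.0, R 4.3.0 and the build mm10, without saying which step each served; the strand setting and the annotation are not given in the sources used here. Expected counts that several genes share are estimates; how their division bears on the fold of 1 histone gene was not tested.

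Expected counts were rounded to whole numbers and tested with edgeR 4.0.16 (R 4.3.3; TMM factors, filterByExpr, robust quasi-likelihood fit over 4 group means), with Benjamini-Hochberg adjustment over 17835 genes and a threshold of 0.05. CPM were scaled with the same factors. Libraries held 939139 to 5713913 counts, and the common biological coefficient of variation was 0.341. Samples were grouped by antibody and treatment as labelled. Alternatives were other scalings, DESeq2 1.42.0, limma 3.58.1 with voom or on log2(FPKM + 1) and log2(FPKM + 0.1), other filters, fits on only the libraries compared, a replicate block and each library left out. On simulated data with the real means, edgeR called 33 of 100 genes changed 2-fold and 65 of 100 changed 4-fold for Arid5a over IgG in medium (16910 genes tested). For IL-17 over medium in the Arid5a RIP it called 28 and 64 of 100 (16948 genes). It also called 3 and 7 unchanged genes. The changed genes were drawn from genes of any level, and libraries differed only in their totals. These shares therefore do not describe the histone genes, most of which were well expressed.

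Genes named are those called in any comparison, the 2 with the highest mean CPM of each family, those with the smallest p of their family, those with the most extreme fold where the mean log2 CPM reached 2, H4c4, up to 4 called genes of each list and comparison, and Slbp, Npat, Lsm11, Casp8ap2, H2az1, H3f3a, H3f3b, Pcna and Rrm2. H2bc13 was named, and Supt16 listed, after their values were seen. The histone genes and the lists were chosen with earlier results of these data known.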

Additional observations from a re-analysis of the deposited data

Results flagged for a closer look

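In groups of 4 libraries, 6 of 72 groups held 1 library far from the other 3 by Dixon's criterion at the 95% level, where chance gives about 1 in 20. H2ac20, an H2A gene, had 189 CPM in Arid5a medium replicate 3 and 300 to 319 CPM in the other Arid5a medium libraries. H2bc4 had 257 CPM in Arid5a medium replicate 2 and 212 to 217 CPM in the others. Hist1h2ap had 69.4 CPM in IgG medium replicate 1 and 0 to 5.35 CPM in the other IgG medium libraries, and 11.7 CPM in Arid5a IL-17 replicate 4 against 0 in replicates 1 to 3. The H4 sum was 611 CPM in Arid5a medium replicate 3 and 897 to 909 CPM in the others. All histone genes came to 6880 CPM in IgG medium replicate 4 and to 5130 to 5350 CPM in the other IgG medium libraries.

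The Arid5a enrichment differed between IL-17 and medium, by edgeR's test of the difference on the log2 scale, for 1 histone gene and 5 genes of the lists. The difference was 1.36 for H2bc3, 1.09 for Slbp, 1.00 for H3f3a, 0.99 for H2az1, 0.98 for Npm1 and 0.94 for H3f3b. Each was lost without some single libraries and under some other settings. The median difference of well-expressed genes was 0.34.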

How the results depend on the processing

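No named call turned its direction under the alternatives run, and each was lost under at least 2 of them. For Arid5a over IgG in medium (1 histone gene called), the count was 0 with scaling on well-expressed genes, with voom, with only the libraries compared, with FPKM at either pseudocount and without both IgG medium replicate 2 and IgG IL-17 replicate 4 (a removal chosen after seeing the data). It was 5 with DESeq2 (3 higher, 2 lower) and 0 to 5 with single libraries left out, 5 without IgG medium replicate 1. With IL-17 (0 called) it was 1 with voom and 0 without each library. For the difference of enrichments (1 called) it was 0 with upper-quartile factors, library totals, scaling on well-expressed genes, FPKM at either pseudocount and the joint removal, 4 with DESeq2, 6 with voom and 0 to 6 with single libraries left out. For IL-17 over medium in the Arid5a RIP (6 called) it was 3 with library totals (all lower), 22 with voom (16 higher, 6 lower), 17 with only the libraries compared, 0 with FPKM at either pseudocount, 12 with the joint removal and 3 to 14 with single libraries left out. In the IgG RIP (0 called) it was 2 with upper-quartile factors, library totals, scaling on well-expressed genes, voom and no filter, 5 with DESeq2, 4 with the joint removal, and 0 to 6 with single libraries left out, 6 without IgG medium replicate 1. Each count of 2 was Hist1h2bq and Hist1h2br, which hold the same values, and the counts of 4, 5 and 6 include both. The summed histone level after IL-17 in the Arid5a RIP had a log2 ratio of 0.22, −0.03 with library totals and −0.09 with scaling on well-expressed genes. The cause of these shifts was not tested. Same-numbered libraries had correlations of −0.13 to 0.20, taken over well-expressed genes after the group means were removed. Such values cannot show whether equal numbers mark paired experiments, and the labels do not say. With the replicate block the counts were 1, 0, 1, 5 and 0 in the order above, and the gene of the third was a loss, not H2bc3 (1.40, adjusted p 0.0661). Depth was lowest in IgG medium replicate 2, at 939139 counts.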
